A study of Mus musculus with 36 samples.

Results

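The glucocorticoid receptor genes and a set of their fast target genes were described here across 3 regions of the adult mouse brain, under vehicle and after repeated dosing with 3 inhibitors of histone deacetylases. The 10 genes were found by their symbols in the probe annotation of the array. They comprised the glucocorticoid receptor gene Nr3c1 and the mineralocorticoid receptor gene Nr3c2, the steroid-activating enzyme gene Hsd11b1, the receptor chaperone gene Fkbp5, and the target genes Tsc22d3, Sgk1, Ddit4, Nfkbia, Klf9 and Pdk4. They were read by 17 of the 45281 probes, which carried 30869 gene symbols in all. They were chosen partly on their differences between Cpd-60 and vehicle in these same arrays, so the Cpd-60 values are given as a description, and tests are given for the brain regions and for SAHA and CI-994.

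Adult male C57BL/6 mice were injected intraperitoneally once a day for 10 days, and tissue was taken 1 hour after the last injection. The daily dose was 10 mg/kg for CI-994, 25 mg/kg for SAHA and 45 mg/kg for Cpd-60, and the control group received vehicle. The mice carried no transgene, and the vehicle, a mixture of saline, PEG-400 and DMSO, went to every group, at 7.5 mL/kg with Cpd-60 and in the vehicle group and at 5 mL/kg with SAHA and CI-994. Cpd-60 and CI-994 are benzamides and SAHA is a hydroxamate, and since the 3 compounds were given at different doses their values stand side by side below without a comparison between them. The prefrontal cortex (PFC), the nucleus accumbens (NAc) and the hippocampus (HIP) were measured in 3 pools of 2 mice for each treatment, which made 36 arrays, and the 3 regions of a pool came from the same mice. All comparisons with vehicle within a region shared the same 3 vehicle arrays.

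The arrays lay on 6 BeadChips of 6 arrays, 2 BeadChips for each region, so region and BeadChip cannot be told apart. Within a region, pools 1 and 2 of vehicle and of Cpd-60 and pool 1 of SAHA and CI-994 shared a BeadChip, and the remaining pools shared the other. For the Cpd-60 pool of mice 3 and 4, called pool 2 here, the title and source gave those mice, whereas the description repeated the mice of pool 1. The title was used. The median raw intensity of an array lay between 82.2 and 108.3, and between 31.9% and 43.3% of its probes were detected at a detection p of at most 0.01. Marker genes of the regions were read under vehicle: 6 of 6 striatal markers were higher and 4 of 4 cortical markers lower in the NAc than in the PFC, and 4 of 5 hippocampal markers were higher in the HIP than in the PFC, at adjusted p under 0.05 in limma. Against the NAc, 3 of 5 hippocampal markers were higher in the HIP and 1 was lower.

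Corticosterone, the main glucocorticoid of the mouse, binds the mineralocorticoid receptor with high affinity and the glucocorticoid receptor with lower affinity, and both receptors then act in the nucleus as transcription factors. The glucocorticoid receptor binds a palindrome of a pair of 6-letter arms on DNA and raises some genes within an hour or a few hours. The hippocampus is known as a main site of both receptors in the brain, and the pathway is best known there for the feedback that ends a stress response. Fkbp5, one of the induced genes, lowers the affinity of the receptor for its hormone and so closes a short feedback loop within the cell.

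The promoters of 3 induced genes are shown because the palindrome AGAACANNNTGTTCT, which reads the same on both strands, was searched for in every promoter, and these 3 show the full palindrome, a single arm and no match. Sequences are from RefSeq on GRCm38.p6, run from 250 bases before to 50 bases after the annotated start, and are written 5′ to 3′ on the strand of the gene. Capitals mark the arms AGAACA and TGTTCT and, in the palindrome, the 3 bases between them.

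Sgk1, chr10:21993640-21993939, plus strand: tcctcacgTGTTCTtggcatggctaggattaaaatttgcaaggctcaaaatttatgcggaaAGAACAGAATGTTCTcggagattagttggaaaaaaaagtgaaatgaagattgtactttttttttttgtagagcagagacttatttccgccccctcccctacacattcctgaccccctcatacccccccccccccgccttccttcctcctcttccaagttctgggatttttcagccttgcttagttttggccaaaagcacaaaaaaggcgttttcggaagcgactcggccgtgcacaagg
Tsc22d3, chrX:140600473-140600772, minus strand: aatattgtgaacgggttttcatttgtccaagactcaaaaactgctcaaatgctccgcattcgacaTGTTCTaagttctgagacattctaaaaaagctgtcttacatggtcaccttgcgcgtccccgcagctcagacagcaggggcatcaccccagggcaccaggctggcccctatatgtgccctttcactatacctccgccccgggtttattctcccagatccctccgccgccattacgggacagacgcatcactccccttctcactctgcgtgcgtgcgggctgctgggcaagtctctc
Fkbp5, chr17:28486100-28486399, minus strand: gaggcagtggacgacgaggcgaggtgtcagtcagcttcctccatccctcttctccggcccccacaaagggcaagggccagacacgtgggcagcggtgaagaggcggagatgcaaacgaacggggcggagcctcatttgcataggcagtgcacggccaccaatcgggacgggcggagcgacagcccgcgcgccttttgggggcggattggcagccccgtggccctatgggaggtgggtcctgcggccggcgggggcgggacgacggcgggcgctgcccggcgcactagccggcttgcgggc

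The palindrome lay in 3 of the 32851 promoters of the table (0.00913%), and 1 of them was this Sgk1 promoter. Counted from the start, its arms began at positions -189 and -180, and a further single arm began at position -242. A single arm on either strand was far commoner and lay in 6233 promoters (19.0%), among them the Tsc22d3 promoter shown, where it began at position -185. The table held 16 promoters of 9 of the genes, with 6 for Sgk1 and 3 for Tsc22d3, and 4 of the 16 held an arm, 3 of Sgk1 and 1 of Tsc22d3. Nr3c1 was not among them. The letters describe these windows only and say nothing of whether the receptor was bound there.

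Levels below are log2 values of the quantile-normalized intensity of the brightest detected probe of a gene, and a difference of 1 on this scale is a doubling. No background had been subtracted, so differences of dim probes are compressed, and levels of different probes are not set against each other. The 8 genes other than the receptors were detected on all 36 arrays at a detection p of at most 0.2, whereas Nr3c1 was detected on 25 and Nr3c2 on 24.

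Under vehicle, 6 of the 10 genes were higher in the HIP than in the PFC, among them the enzyme gene Hsd11b1, the chaperone gene Fkbp5 and the target gene Sgk1. The call for Nr3c2, also among the 6, was made against PFC arrays near background. In bulk tissue, more cells that express a gene and more RNA per cell cannot be told apart. Hsd11b1 encodes the enzyme that regenerates active corticosterone inside cells, and its 3 vehicle pools read 9.96, 9.92 and 9.84 in the HIP, 7.46, 7.35 and 7.24 in the NAc, with 9.24, 9.09 and 8.86 in the PFC. No pool of one region overlapped with another, in the order HIP, PFC, NAc. The HIP stood 2.56 above the NAc (5.89-fold, SE 0.098, limma adjusted p = 1.44e-07) and 0.85 above the PFC (1.80-fold, adjusted p = 0.000297), and the NAc stood 3.28-fold below the PFC (adjusted p = 1.58e-06). Another pair of Hsd11b1 probes gave the same order, with 5.33-fold for the HIP over the NAc in each.

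Fkbp5 followed another order. Its vehicle pools read 7.82, 7.53 and 7.68 in the HIP, 7.29, 7.48 and 7.37 in the NAc, with 7.07, 6.84 and 6.97 in the PFC. The 3 regions did not overlap, and the HIP was highest. The HIP exceeded the PFC by 0.71 (1.64-fold, SE 0.092, limma adjusted p = 0.000559) and the NAc exceeded the PFC by 0.42 (1.33-fold, adjusted p = 0.00923). The step from the NAc to the HIP, 0.30 (1.23-fold), sat at the threshold (adjusted p = 0.0497) and lost its call when the mice shared between regions were modelled as a block (adjusted p = 0.0723) or the BeadChip as a random block. The size of the other differences depended on the background: over the alternatives the HIP stood 0.70 to 1.40 and the NAc 0.30 to 0.90 above the PFC, the highest values being those of background correction by neqc.

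The receptors themselves gave dim signals. Nr3c1 read 6.75, 6.76 and 6.62 in the HIP, where all 3 vehicle arrays detected it, 6.49, 6.52 and 6.82 in the NAc, where 1 did, and 6.52, 6.48 and 6.59 in the PFC, where none did. Since the PFC arrays gave no detected signal, no difference is given for this pair. Nr3c2 read 6.98, 6.77 and 6.80 in the HIP, 6.64, 6.69 and 6.67 in the NAc, with 6.60, 6.62 and 6.45 in the PFC. The HIP pools lay above all others, and the HIP exceeded the PFC by 0.29 (1.22-fold, limma adjusted p = 0.0154), while the HIP against the NAc (0.18, adjusted p = 0.122) and the NAc against the PFC (0.11, adjusted p = 0.308) did not pass. The probe was detected on 2 of 3 vehicle PFC arrays at a detection p of at most 0.2 and on 0 of 3 at 0.01, against 3 of 3 HIP arrays at both, so the size of the difference is uncertain, and it ranged from 0.25 to 0.84 over the alternatives tried.

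Among the induced genes, Sgk1, a kinase that acts on ion channels, read 9.90, 10.28 and 10.35 in the HIP, 9.92, 10.01 and 9.97 in the NAc, with 9.82, 9.62 and 9.71 in the PFC. The HIP exceeded the PFC by 0.46 (1.38-fold, adjusted p = 0.0111), and its lowest pool lay below those of the NAc. Klf9, a transcription factor induced by glucocorticoids and thyroid hormone, was 0.41 higher in the HIP than in the PFC (1.33-fold, adjusted p = 0.0155), and Ddit4, which restrains the mTOR complex, was 0.32 higher (1.25-fold, adjusted p = 0.0159). Tsc22d3, which encodes the anti-inflammatory protein GILZ, was 0.43 higher in the HIP than in the NAc (1.35-fold, adjusted p = 0.00474), from pools of 9.40, 9.33 and 9.26 against 8.79, 8.92 and 8.99. Its other probe went the opposite way, at -0.14 (adjusted p = 0.362), so the regional order of Tsc22d3 depends on the probe. Nfkbia, the inhibitor of NF-κB, and Pdk4, a kinase that shuts down pyruvate oxidation, had no regional difference past the threshold, and the largest differences of their main probes in size were -0.07 and 0.06.

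By count, 6 of 10 genes were higher in the HIP than in the PFC and none lower, beside 14.2% higher and 14.8% lower among all 21632 probes tested. Of 9 genes tested between the NAc and the PFC, 1 was higher and 1 lower, beside 11% and 12.8% of all probes, and between the HIP and the NAc 3 of 10 were higher and none lower, beside 8.83% and 10.2%. Without vehicle pool 2, 4 of these 11 calls remained, namely Hsd11b1 in all 3 comparisons and Fkbp5 between the HIP and the PFC, and without vehicle pool 1, 6 remained. Cell type markers moved with the regions as well. The summed intensity of 6 oligodendrocyte markers under vehicle was 21371 to 23451 in the HIP, 13000 to 16933 in the NAc, with 7252 to 8906 in the PFC, with 6 of 6 higher in the HIP than in the PFC, and that of 4 choroid plexus markers was 2831 to 10919, 714 to 853 and 446 to 936, with 4 of 4 higher in the HIP than in the PFC. Of the astrocyte markers, 3 were higher and 1 lower in the HIP than in the PFC. None of these markers was at 0, and their part in the regional levels was not tested.

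**Figure D1:**
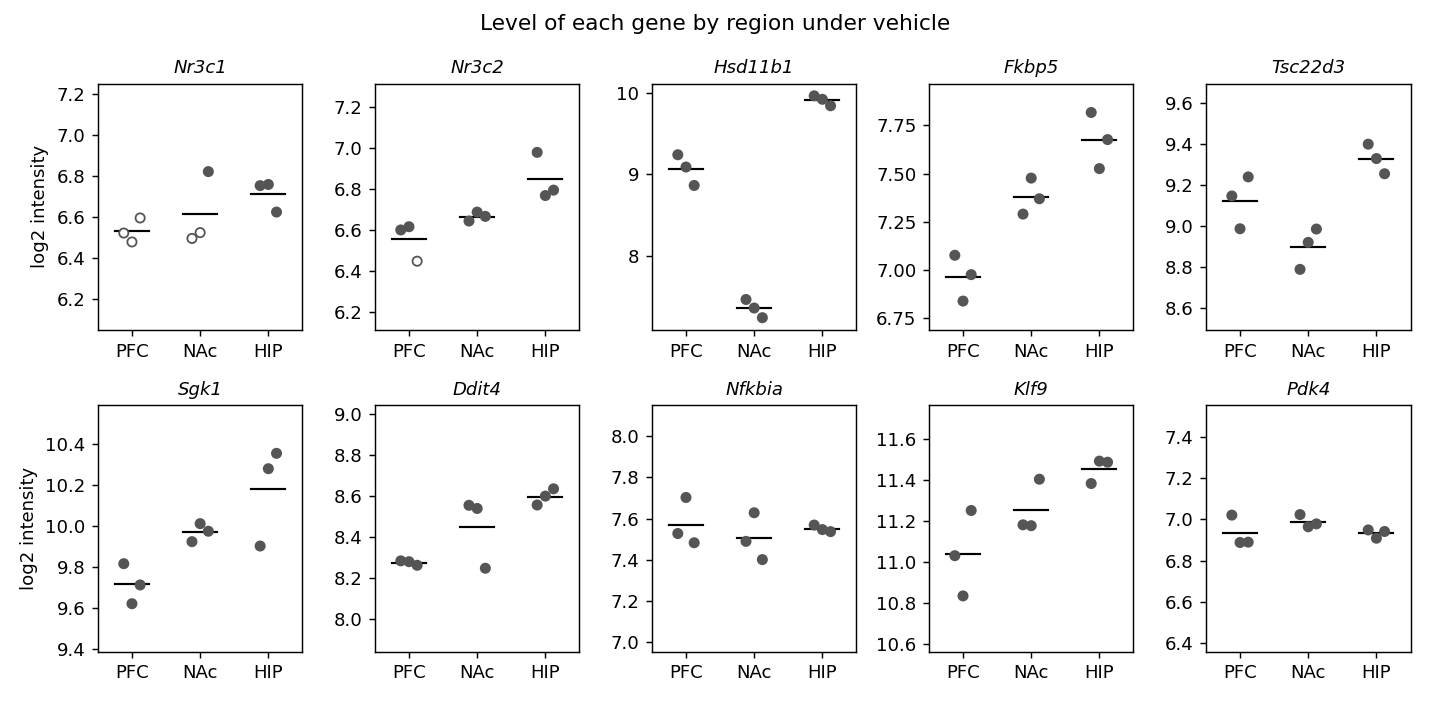
Level of each of the 10 genes in the 9 vehicle arrays, as log2 quantile-normalized intensity of its main probe on the vertical axis, by region on the horizontal axis; points are pools of 2 mice, open where the probe was not detected at a detection p of at most 0.2, and horizontal lines are the means of 3 pools, with a scale of its own for each panel. Hsd11b1 is highest in the HIP (9.84 to 9.96) and lowest in the NAc (7.24 to 7.46), and Fkbp5 rises from the PFC through the NAc to the HIP.

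After Cpd-60, 5 of the target genes read higher than under vehicle, and the size differed strongly between pools. The 5 were Sgk1, Tsc22d3, Fkbp5, Ddit4 and Nfkbia, grouped after their values were seen. Their 15 values in a pool, 5 genes in 3 regions, lay above the highest vehicle pool of the same region in 15 of 15 cases in Cpd-60 pool 1, in 15 of 15 in pool 2 and in 9 of 15 in pool 3. The median excess over the vehicle mean was 0.72 in pool 1, 0.94 in pool 2 and 0.13 in pool 3. Pools 1 and 2 lay on one BeadChip and pool 3 on the other, so pool and BeadChip cannot be told apart for this difference, and if the description label rather than the title were right, the pair of high pools would share their mice. The SAHA and CI-994 pools on the same BeadChips as Cpd-60 pools 1 and 2 had medians of 0.09 and 0.07. Each of these pools had 8 of 15 values above the highest vehicle pool, beside the 9 of 15 of Cpd-60 pool 3. The count was 6 and 4 in SAHA pools 2 and 3, and 4 and 3 in CI-994 pools 2 and 3. The 5 genes were grouped from these same values and no share over all probes was counted for single pools. Nothing is therefore read from these counts.

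Sgk1 showed the gap between pools in each region. Cpd-60 pools 1, 2 and 3 read 11.40, 11.21 and 10.59 in the HIP, 11.11, 10.96 and 10.08 in the NAc, with 10.56, 10.58 and 9.81 in the PFC. In each region pools 1 and 2 were at least 0.84 above the vehicle mean, whereas pool 3 exceeded it by 0.41 in the HIP, 0.11 in the NAc and 0.09 in the PFC. The 3-pool differences were 0.60 (SE 0.18), 0.75 (SE 0.22) and 0.89 (SE 0.18) in the PFC, NAc and HIP, or 1.51-, 1.68- and 1.85-fold.

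Tsc22d3 differed in that pool 3 also read high in the NAc. Its Cpd-60 pools read 9.93, 10.03 and 9.31 in the HIP, 9.62, 10.02 and 9.62 in the NAc, with 9.62, 10.00 and 9.41 in the PFC. All NAc and PFC values lay above all vehicle values of the region, whereas the pool 3 value of the HIP lay among them. The differences were 0.43 (SE 0.16) in the HIP, 0.85 (SE 0.20) in the NAc and 0.55 (SE 0.12) in the PFC. On its other probe the NAc pools read 8.27, 8.70 and 7.02 beside vehicle pools of 7.30, 7.31 and 7.05, so the high pool 3 value of the NAc was seen on the main probe only. In the HIP all Cpd-60 pools of the other probe lay above vehicle, the lowest at 7.46 beside a highest vehicle pool of 7.24. The place of pool 3 in the HIP thus depends on the probe as well.

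Fkbp5 read 8.14, 8.14 and 7.81 in the HIP, 7.80, 8.00 and 7.35 in the NAc, with 7.29, 7.99 and 7.21 in the PFC after Cpd-60. The PFC values all lay above vehicle, and in the NAc and HIP pool 3 lay among the vehicle pools. The differences were 0.54 (SE 0.16) for the PFC, 0.34 (SE 0.15) for the NAc and 0.36 (SE 0.12) for the HIP, and after background correction (neqc) they were 1.07, 0.55 and 0.53, this probe being dim. Ddit4 and Nfkbia likewise read high in pools 1 and 2. Ddit4 read 9.38, 9.62 and 8.78 in the HIP, 9.29, 9.35 and 8.29 in the NAc, with 8.91, 9.14 and 8.47 in the PFC, and Nfkbia read 8.68, 8.57 and 7.66, then 8.07, 8.53 and 7.43, then 8.52, 8.51 and 7.73 in the same order. For both genes pool 3 of the NAc lay among the vehicle pools. The Ddit4 differences were 0.66 (HIP), 0.53 (NAc) and 0.56 (PFC), and those of Nfkbia were 0.75 (HIP), 0.50 (NAc) and 0.68 (PFC).

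Hsd11b1 read 7.75, 8.01 and 7.72 in the NAc after Cpd-60, a difference of 0.48 (1.39-fold, SE 0.12), with all 3 pools above all vehicle pools. In the PFC and the HIP it read 0.25 and 0.25 higher. Another pair of its probes read 0.33 and 0.42 higher for the PFC, both past the threshold given below, 0.21 and 0.08 higher for the HIP, with 0.34 on either probe for the NAc. Background correction by neqc gave 0.80 in the NAc for the main probe. Klf9 had values of 11.51, 11.90 and 11.47 in the HIP, 11.23, 11.63 and 11.36 in the NAc, with 11.40, 11.49 and 11.02 in the PFC, and only pool 2 stood above vehicle in every region. Pdk4 was higher by 0.21 (PFC), 0.11 (NAc) and 0.09 (HIP), again with the largest value in pool 2, and by 0.48, 0.25 and 0.21 after neqc. Nr3c1 and Nr3c2 stood 0.10 and -0.12 from vehicle in the NAc, against -0.01 and -0.07 for the HIP, and neither was detected well enough in the PFC to be compared.

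At a threshold of an unadjusted limma p under 0.05 and a change of at least 1.2-fold, the genes found higher numbered 5 of 8 for the PFC, 4 of 10 for the NAc and 5 of 10 for the HIP, with none lower. The study's methods set the same fold beside Tukey's test, by which 3, 2 and 2 genes passed. Among all probes tested 0.673%, 0.809% and 0.726% were higher, and since these arrays led to the choice of the genes nothing is read from these shares. All 3 pools lay above all vehicle pools for 5 of 8 PFC genes (4.87% of all probes), 3 of 10 NAc genes (4.26%) and 4 of 10 HIP genes (5.78%). None of the 14 passed an adjusted p of 0.05. On the mean of the 3 regions of each pool, where the 12 pools of mice are the replicates, the differences were 0.74 for Sgk1, 0.65 for Nfkbia, 0.61 for Tsc22d3, 0.59 for Ddit4, 0.41 for Fkbp5, 0.33 for Hsd11b1, 0.20 for Klf9 and 0.14 for Pdk4, and the first 6 were past the threshold, beside 0.617% of all probes. Within the BeadChip that held Cpd-60 pool 3 and vehicle pool 3, the Sgk1 differences were 0.09 (PFC), 0.10 (NAc) and 0.23 (HIP) and that of Fkbp5 in the NAc was -0.016, while those of Tsc22d3 and Hsd11b1 in the NAc were 0.64 and 0.49. The summed intensity of 6 astrocyte markers in the HIP was 11947 to 12528 after Cpd-60 and 10502 to 10993 under vehicle, with 0 of 6 past the threshold. In the NAc 2 of the 6 were higher past the threshold, with sums of 8554 to 9953 beside 7852 to 9356. Of 3 blood markers, 1 was lower in the NAc (sums of 5154 to 8153 beside 8100 to 11516), and of 5 endothelial markers, 1 was lower in each of the HIP and NAc. The endothelial sums in the PFC were 1305 to 1421 beside 1473 to 1530 under vehicle. In the NAc 1 of 5 microglia and 1 of 5 hippocampal markers were lower. In the PFC 1 of 6 oligodendrocyte and 1 of 5 striatal markers were higher. For pools 1, 2 and 3 the striatal sums in the NAc were 17828, 15142 and 12352 (vehicle 14993 to 16612). Oligodendrocyte sums there were 14622, 13003 and 19710 (vehicle 13000 to 16933), and choroid plexus sums 1097, 768 and 1791 (vehicle 714 to 853). Hippocampal sums in the PFC were 1890, 2158 and 1183 (vehicle 1412 to 1588). The HIP oligodendrocyte sum of pool 3, 21546, lay within vehicle (21371 to 23451). None of these markers was at 0. Their part in the Cpd-60 values was not tested.

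**Figure D2:**
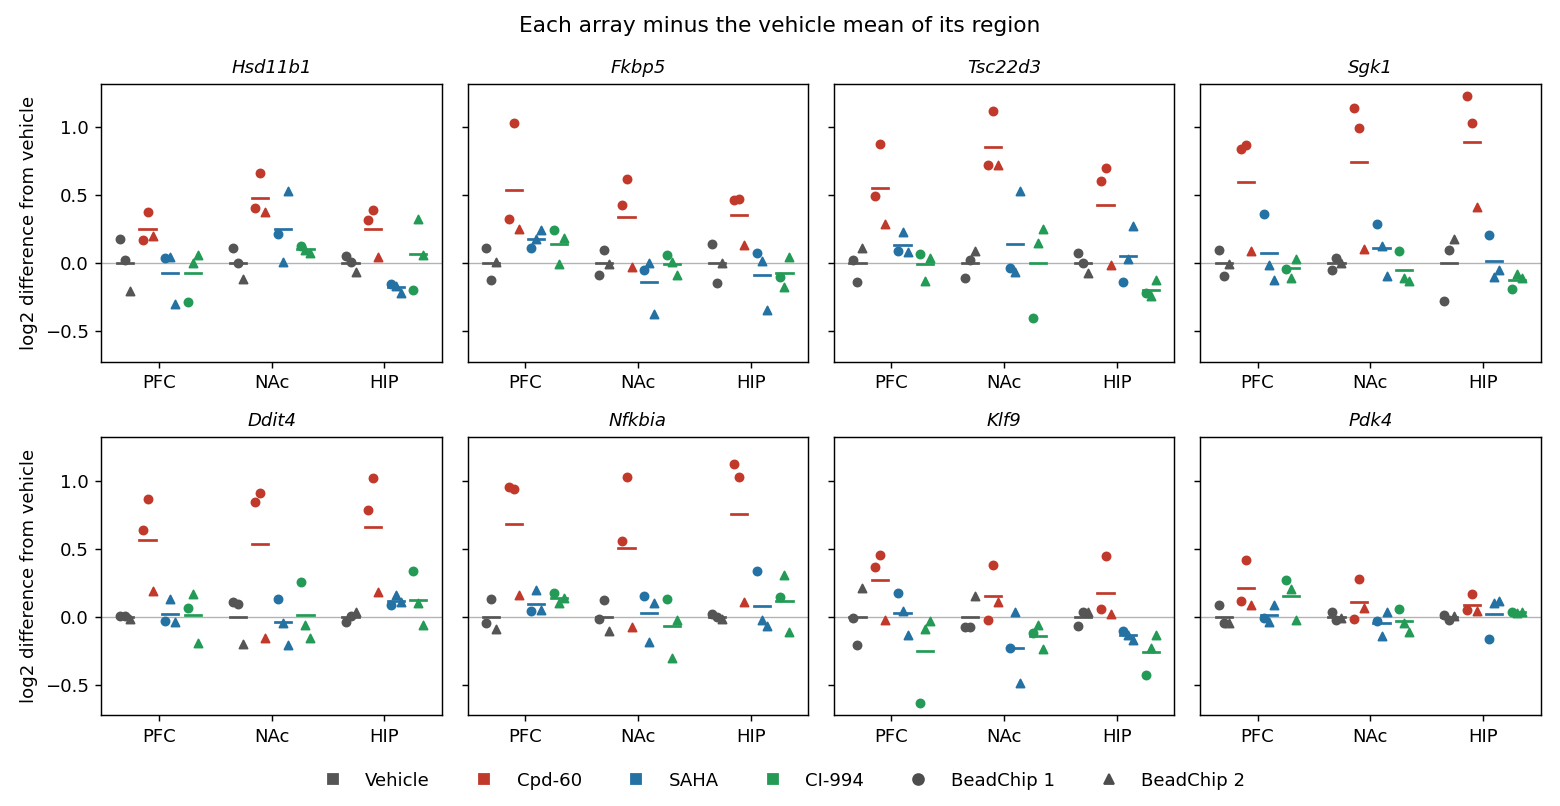
Difference of each drug array from the mean of the 3 vehicle arrays of its region, on the log2 scale, for the main probe of the 8 genes measured in every region; points are single pools, as circles on the BeadChip of Cpd-60 pools 1 and 2 and triangles on the other, and horizontal lines are means of 3 pools. Cpd-60 pools 1 and 2 sit above the vehicle range for Sgk1, Tsc22d3, Fkbp5, Ddit4 and Nfkbia in each region, and SAHA and CI-994 points scatter around 0.

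**Figure D3:**
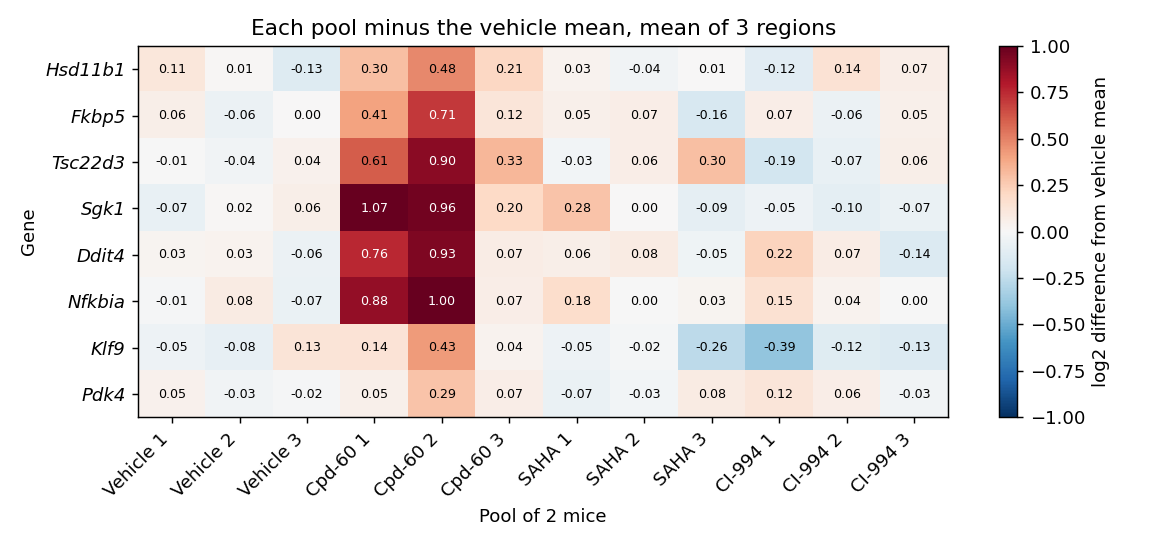
Mean over 3 regions of the difference from the vehicle mean, on the log2 scale, for each gene (rows) and each pool of 2 mice (columns), with colours that end at 1.00 in either direction. For Sgk1 the Cpd-60 pools 1, 2 and 3 stand at 1.07, 0.96 and 0.20, and for Nfkbia at 0.88, 1.00 and 0.07.

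After SAHA, the main probes of these genes gave 28 comparisons, 8 for the PFC, 10 for the NAc and 10 for the HIP. None passed this threshold or reached an unadjusted p under 0.05 in limma. None had a p under 0.05 in an analysis of variance with Tukey's test. Among all probes 0.217%, 0.546% and 3.17% passed the threshold for the PFC, NAc and HIP, and 2.25%, 2.05% and 9.37% had an unadjusted p under 0.05. Sgk1 read 10.39, 10.08 and 10.12 in the HIP, 10.26, 10.10 and 9.88 in the NAc, with 10.08, 9.70 and 9.59 in the PFC. These pools overlapped with those of vehicle in each region. The mean over regions differed from vehicle by 0.07 for Sgk1 (95% interval -0.32 to 0.45), 0.11 for Tsc22d3 (-0.16 to 0.38), -0.01 for Fkbp5 (-0.27 to 0.24), 0.03 for Ddit4 (-0.34 to 0.40) and 0.07 for Nfkbia (-0.33 to 0.46). None of the 8 genes measured in every region passed the threshold on this mean, beside 0.0823% of all probes. The intervals are wide beside these values, so a change within them could not be told from none. They rest on an estimate of the spread shared by all 4 treatments, so the uneven Cpd-60 pools enter them. For Sgk1 the SD of the pool means was 0.47 for Cpd-60, 0.07 for vehicle, 0.19 for SAHA and 0.02 for CI-994. The SE was 0.18 for SAHA and CI-994 alike.

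A few SAHA values of main probes stood apart from vehicle without passing the test. Hsd11b1 read 9.75, 9.74 and 9.69 in the HIP, all below vehicle (-0.18, SE 0.12), and 7.57, 7.36 and 7.88 in the NAc, where it was 0.25 higher (SE 0.12, limma adjusted p = 1.00) and, with the BeadChip as a fixed block, 0.28 higher and past the threshold. On another pair of Hsd11b1 probes the NAc means were 7.50 and 7.29 after SAHA, beside 7.38 and 7.21 under vehicle. All their HIP pools again lay below vehicle. Klf9 in the HIP read 11.35, 11.32 and 11.28, all below vehicle, and Ddit4 read 8.68, 8.76 and 8.70, all above vehicle. Among all HIP probes 10.8% lay wholly below vehicle and 8.45% wholly above. Fkbp5 read 7.08, 7.14 and 7.20 in the PFC, just above the vehicle pools (4.41% of all probes there lay wholly above), and 7.33, 7.38 and 7.00 in the NAc, where pool 3 was lower than vehicle. The brighter Tsc22d3 probe differed by 0.06 in the HIP, but the dimmer one read 7.22, 7.44 and 7.55 against 6.99, 7.00 and 7.24. That difference of 0.33 had an unadjusted p of 0.0292 and an adjusted p of 0.515 in limma. The dimmer probe was thus past the threshold, though not after adjustment. In the HIP, 3 of 6 oligodendrocyte markers were lower after SAHA at this threshold, with summed intensities of 18239 to 19670 beside 21371 to 23451 under vehicle, none at 0. Of 3 blood markers, 2 were lower in the PFC and 1 in the HIP. In the NAc all 3 had every SAHA pool below all vehicle pools, with 0 past the threshold. Of 6 astrocyte markers 1 was higher in the NAc, with sums of 9466 to 10220 beside 7852 to 9356 under vehicle. In the HIP 1 astrocyte marker was higher and 1 lower, and 1 of 4 striatal markers was lower. In the PFC 1 of 6 oligodendrocyte markers was higher. The part of these markers in the values was not tested. Scaling each array by its median instead of by quantiles shifted the median of all HIP probes after SAHA by -0.19 on the log2 scale and gave calls, all lower, for 4 genes in the HIP, with Klf9 at -0.74, Hsd11b1 at -0.75, Tsc22d3 at -0.51 and Fkbp5 at -0.43.

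After CI-994, none of the 28 comparisons of main probes passed the threshold in limma, beside 0.654%, 0.383% and 0.67% of all probes in the PFC, NAc and HIP. In Tukey's test 0 had a p under 0.05. In limma 1 reached an unadjusted p under 0.05, beside 3.98%, 1.99% and 3.24% of all probes. This was Klf9 in the HIP, which read 11.03, 11.23 and 11.32, all below the vehicle pools of 11.38, 11.49 and 11.49 (4.6% of all HIP probes lay wholly below). The difference was -0.26 (0.835-fold, SE 0.11, unadjusted p = 0.0299, adjusted p = 1.00). The difference missed the 1.2-fold bound by a small margin and passed it without vehicle pool 1 (-0.30), CI-994 pool 2 (-0.28) or CI-994 pool 3 (-0.33). Klf9 also read lower in the PFC (-0.25, 95% interval -0.61 to 0.11) and in the NAc (-0.14, -0.44 to 0.17), and its mean over regions was -0.22 (-0.45 to 0.02).

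On their main probes, none of the remaining genes reached an unadjusted p under 0.05 in limma after CI-994. Tsc22d3 read 9.11, 9.09 and 9.21 in the HIP, all below vehicle, at a difference of -0.19, while in the PFC and NAc its pools overlapped with vehicle. Pdk4 read 6.97, 6.96 and 6.97 in the HIP, just above the highest vehicle pool of 6.95 (4.98% of all HIP probes lay wholly above). Over the 3 regions the differences were -0.07 for Sgk1 (-0.46 to 0.31), -0.07 for Tsc22d3 (-0.34 to 0.20), 0.02 for Fkbp5 (-0.23 to 0.27), 0.05 for Ddit4 (-0.32 to 0.42), 0.06 for Nfkbia (-0.33 to 0.46), 0.03 for Hsd11b1 (-0.15 to 0.21) and 0.05 for Pdk4 (-0.10 to 0.20), and no gene passed the threshold on this mean, beside 0.247% of all probes. In the HIP, 4 of 6 oligodendrocyte markers had all CI-994 pools below all vehicle pools, at summed intensities of 19074 to 21527 beside 21371 to 23451 under vehicle, though 0 of 6 passed the threshold. Of 3 blood markers, 2 were lower past the threshold in each region, with HIP sums of 5408 to 5723 beside 8374 to 9783 under vehicle. None of these markers was at 0, and their part in the Klf9 and Tsc22d3 values was not tested.

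**Figure D4:**
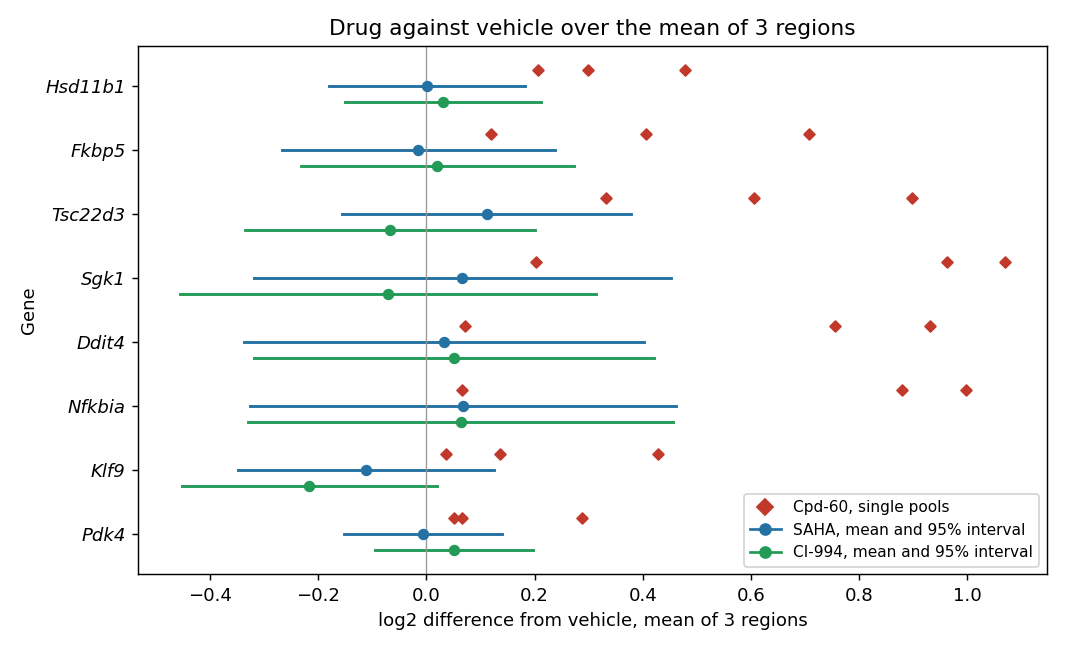
Difference from vehicle on the log2 scale (horizontal axis) of the mean over 3 regions, for each gene; circles and bars are the SAHA and CI-994 means of 3 pools and their 95% intervals from limma, and diamonds are single Cpd-60 pools. The intervals of SAHA and CI-994 cover 0 for all 8 genes measured in every region.

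Whether a drug effect differed between regions was tested for SAHA and CI-994 in 8 genes and 3 pairs of regions, 24 differences for each drug. For SAHA, 1 had an unadjusted p under 0.05 and none passed adjustment (lowest limma adjusted p = 0.719), and for CI-994 none did either way. Among all probes an unadjusted p under 0.05 was reached for SAHA in 4.17% (HIP against PFC), 1.69% (NAc against PFC) and 6.61% (HIP against NAc), and for CI-994 in 1.57%, 1.62% and 1.94%.

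Other genes known to be induced by glucocorticoids were read from a list of 21, of which 20 were tested in each region. After Cpd-60, 8 of 20 for the PFC, 7 for the NAc and 8 for the HIP were higher at the threshold, and none were lower, beside 0.673%, 0.809% and 0.726% of all probes higher, with median differences of 0.23, 0.28 and 0.29 beside medians within 0.01 of 0 over all probes. Plin4, a lipid droplet protein, passed in each region (PFC 0.30, NAc 0.33 and HIP 0.30). The cell cycle inhibitor Cdkn1a was higher by 1.06 in the HIP and 0.79 in the NAc, the iron-binding protein Lcn2 1.26 in the PFC, the phosphatase Dusp1 0.52 in the PFC and the transcription factor Cebpb 0.59 in the NAc. Lcn2 also read 1.30 higher in the NAc and 1.02 in the HIP, where it missed the bound on p. The metallothioneins bind metal ions, and Mt1 was 0.39 higher in the PFC and 0.43 in the HIP, while Mt2 was higher by 0.49 in the HIP and 0.44 in the NAc. The rest of those that passed were Angptl4 (0.36 and 0.32) and Sult1a1 (0.36 and 0.42) in the PFC and NAc, Fam107a (0.30 and 0.41) in the same regions, Arrdc2 (0.33 and 0.31) in the PFC and HIP, and Gjb6 (0.33), Gpd1 (0.31) and Zbtb16 (0.29) in the HIP. The list was written with results of the Cpd-60 arrays known, so its counts are a description. Over 20 genes in each of 3 regions, SAHA gave 2 past the threshold, both higher in the NAc (Gjb6 0.54 and Fam107a 0.29, beside 0.546% of all NAc probes past it in either direction), and CI-994 gave 1, Cdkn1a, lower in the PFC at -0.53 (beside 0.654% of all PFC probes).

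Of 12 chaperones and coregulators of the receptors, 9 were tested in the PFC and the NAc and 8 in the HIP. None passed the threshold with any drug other than the chaperone gene Fkbp4, which was lower in the HIP after Cpd-60 (-0.32). Of all 23275 HIP probes tested, 186 were lower at this threshold after Cpd-60.

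Genes whose pattern was most like that of Fkbp5, Sgk1 and Tsc22d3 were ranked by Pearson correlation over the 36 arrays after the mean of each region was removed, among 13991 genes. For Fkbp5 they were Trp53inp1 (0.85), Plin4 (0.81), Cirbp (0.81), Cfl1 (0.80) and LOC100043257 (0.80). Sgk1 was most like Lrrc33 (0.88), Plin4 (0.86), Cirbp (0.85), LOC100043257 (0.82) and Sdc4 (0.82), and Tsc22d3 most like Agxt2l1 (0.83), Sdc4 (0.82), Camkk1 (0.76), Zfp36 (0.76) and Trp53inp1 (0.76). Plin4, Cirbp and LOC100043257 were thus named for both Fkbp5 and Sgk1. Among the 10 genes themselves the closest pairs were Ddit4 and Nfkbia (0.90), Nfkbia and Sgk1 (0.88) and Ddit4 and Sgk1 (0.87), and with the mean of each treatment and region removed they stood at 0.80, 0.76 and 0.75. These arrays share their mice between regions and their BeadChips within them, and the difference between the Cpd-60 pools enters each coefficient, so the values are a description.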

How the data were processed

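RNA of 36 samples, pooled from 2 mice each, was labelled with biotin and hybridized to Illumina MouseWG-6 BeadChips. The authors deposited the intensity of each probe and its detection p-value, neither normalized nor background-corrected, and the scanner software is not given in the sources used here. Per the methods, the study normalized by quantiles and compared groups by analysis of variance with Tukey's test.

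The 36 arrays were quantile-normalized together in R 4.3.3 with limma 3.58.1 and taken to log2. Probes entered a test if all 3 arrays of any group compared had a detection p of 0.2 or less. Each region was fitted by limma over its 12 arrays without covariates, with Benjamini-Hochberg adjustment over all probes tested. Region levels were fitted on the 9 vehicle arrays, the mean of 3 regions on 12 pools, and drug effects between regions on 36 arrays with the pool as a random block. The fits were tested on simulated data with known changes. P-values measure the spread between pools of mice together with any difference between the BeadChips of a region, since no BeadChip term was fitted. SAHA and CI-994 pools were spread over the BeadChips otherwise than vehicle pools, so such a difference also enters their comparisons. The fit of region levels took regions of the same mice as independent. The number of arrays limits the precision. In the drug fits the estimate of the spread is shared by all treatments, Cpd-60 included.

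The 10 genes and all lists were chosen with earlier results of these data known. Each gene was named by its brightest detected probe, with the 5 genes most like Fkbp5, Sgk1 and Tsc22d3 and the members of the list of other induced genes past the threshold. Samples with the same pool number but different treatments varied together more often than those with different numbers, though not all did. The correlation of deviations was -0.45 to 0.87, over 0.1 in 32 of 54 pairs, median 0.24, against a median of -0.14 and 36 of 108. Pool number and BeadChip went together in part, and what the pattern reflects was not tested. In the main fits the number was not used to pair mice across treatments, and it was a block in an alternative. Across regions a pool was the same mice. Alternatives were background correction by neqc, other detection limits, median scaling, quantiles within a region, blocks for BeadChip and pool number, Tukey's test, 27 arrays without CI-994, and leaving out each pool.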

Additional observations from a re-analysis of the deposited data

Results flagged for a closer look

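For the main probe of Hsd11b1 the difference between SAHA and vehicle was 0.25 in the NAc and -0.18 in the HIP, every NAc pool lay above the vehicle mean and every HIP pool below it, and the value for the HIP minus that for the NAc was -0.43 (unadjusted p = 0.0290 in limma, adjusted p = 0.719 over all probes). It did not pass adjustment, 6.61% of all probes had an unadjusted p under 0.05 for this pair of regions, and it lost that p without vehicle pool 2 (-0.43), vehicle pool 3 (-0.41) or SAHA pool 3 (-0.27). For Fkbp5 the SAHA difference in the NAc minus that in the PFC was -0.32 (unadjusted p = 0.171, limma adjusted p = 1.00), drawn out because all PFC pools lay above the vehicle mean and all NAc pools below it, although 1 NAc pool, at 7.38, equalled the vehicle mean of 7.38 to 2 decimals. Neither passed adjustment, and 48 such differences were compared.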

How the results depend on the processing

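Calls of the 10 genes in this section are those of main probes. Of the calls under the main settings, Hsd11b1 between all pairs of regions and Fkbp5 between the HIP and the PFC passed under all 9 alternatives tried, while Fkbp5 between the HIP and the NAc passed under 1. After Cpd-60, 14 comparisons were past the 1.2-fold threshold, 7 by Tukey's test and 11 with pools 1 and 2 averaged as 1 pool, an alternative chosen after seeing the data; within BeadChip 2, Fkbp5 in the NAc turned to -0.016. With the replicate block the counts were 15 for Cpd-60, 0 for SAHA and 0 for CI-994, region levels gave 10 calls with the pool of animals as a block beside 11 without it, and the drug effect between regions gave 1 without the replicate block, as with it.

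Median scaling shifted the median of all HIP probes after SAHA by -0.19 and gave 4 SAHA calls in place of 0, all lower in the HIP (Klf9 -0.74, Hsd11b1 -0.75, Tsc22d3 -0.51, Fkbp5 -0.43), of which Tsc22d3 had turned from 0.06. It gave 5 region calls and 3 differences of a drug effect between regions. Over all probes it moved the share of calls that were higher from 44.3% to 0.0128% for SAHA in the HIP, from 47.6% to 8.75% for Cpd-60 in the HIP, and from 48.8% to 75.2% for the HIP against the PFC. Quantiles within each region gave 1 CI-994 call, for Klf9 in the HIP. A fixed block for the BeadChip gave 1 SAHA call, for Hsd11b1 in the NAc (0.28). Over all probes, neqc gave 594 higher and 615 lower calls for Cpd-60 in the PFC beside 149 and 97.

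Leaving out each pool gave 11 to 19 calls for Cpd-60, 0 to 2 for SAHA (2 without SAHA pool 2), 0 to 1 for CI-994 (Klf9 in the HIP), 4 to 7 for the mean of 3 regions beside 6, 4 to 16 for region levels and 0 to 2 for the drug effect between regions beside 1. The causes of these changes were not tested. Signal over background limits what can be said of Nr3c1 and Nr3c2.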
